A study of Mus musculus with 6 samples.

Results

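Epithelial cells recovered in a sort for CD45, the common leukocyte antigen, were described in single-cell RNA data from mouse mammary tumours. A cell was a member if it held at least 3 counts over Krt8, Krt18 and Epcam, no count of Ptprc (the gene of CD45) or Csf1r, and at most 1 count over Cd3e, Cd3d and Cd3g. Cells entered with 200 or more genes and no more than 15% of counts from mitochondrial genes. This left 131 members among 26843 cells: 67 from ctxd18t, 37 from CTX, 18 from combod18t, 6 from MRX and 3 from Combined. Because the members were chosen by measured counts, of Krt8, Krt18, Epcam and the immune genes, gene levels in them are given as a description, with no test.

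The study's title names MERTK inhibition and cyclophosphamide in triple negative breast cancer, that is, breast cancer without the oestrogen and progesterone receptors or amplified ERBB2. All libraries came from mammary tumours and held live (DAPI-negative) CD45-positive sorted cells, 1 library for each treatment label. The labels MRX, CTX, Combined, ctxd18t and combod18t are not spelled out in the sample records, and d18 is part of the last pair only. The protocol, the same text on all samples, describes dosing of mice on day 7, 3 hours before euthanasia, and names multiplexing barcodes for Combined, CTX and MRX but not for the d18 pair. The strain, the tumour model, the age of the mice and the number of mice behind a library are not given in the sources used here. With 1 library per label, differences between libraries have no replicate check, and treatment, day, mouse and run cannot be told apart. The untreated or vehicle library is not analysed here.

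The mammary gland has a bilayered epithelium. Luminal cells line the ducts, carry simple keratins such as Krt8 and Krt18, and include progenitors that make milk proteins. Basal (myoepithelial) cells surround them, contract, and carry Krt5, Krt14 and the transcription factor Trp63. Mammary carcinomas can keep either programme or mix both, and tumour epithelium can itself make chemokines that draw T cells.

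The label was checked on genes the rule did not use. In the 67 members of ctxd18t, the tight-junction genes Cldn3 and Cldn7 stood at 243 and 133 CPM (counts summed over the cells of a set and scaled to 1000000 UMIs), against 0 and 0.169 CPM in T cells of that library. The basal keratin Krt14 stood at 478 CPM, and the milk-protein genes Wfdc18 and Csn3 at 3809 and 3638 CPM. The T cells, B cells and macrophages used for comparison were gated in ctxd18t on at least 3 counts of their own markers with no Krt8, Krt18 or Epcam count, so those 3 genes are at 0 in them by construction. The gates held 1194 T cells, 753 B cells and 635 macrophages. Leaving out cells with a count of those 3 genes can also lower genes that go with them in the gates. In all other ctxd18t cells, without that cut, Wfdc18 and Csn3 were 121 and 76.4 CPM. Of 16 luminal genes outside the rule, 16 were at least 2-fold higher than in T cells. Against B cells 14 were higher and 2 lower, and against macrophages 15 and 1. All genes compared were higher in 20.2%, 21.4% and 25.4% of cases. By most of these genes the members read as epithelial. No gene measured here tells a tumour cell from a normal epithelial cell, so that word of the label was not checked.

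Markers of other cells were low in most members. The T cell list summed to 26 counts over all 131 members and was 0 in 107, and in ctxd18t it was 13.8 CPM over the members, against 6537 CPM in the T gate; the rule capped Cd3 counts in the members and the gate required them, so both ends are partly set by selection. The NK list gave 14 counts with 118 members at 0, the B cell list 35 with 106 at 0, the endothelial list 23 with 116 at 0 and the fibroblast list 54 with 103 at 0. The neutrophil list gave 181 counts, with 84 members at 0 and 62 counts in a single member. The macrophage list gave 613 counts with 58 members at 0, and most of these were counts of Cd14; Lyz2, a defining macrophage gene, was 0 in 105 members and never above 3. The dendritic list gave 1440 counts, mostly of the interferon-response gene Bst2, with 38 members at 0, and the erythroid list 8. In CPM the dendritic list was 1014 in CTX members and 287 in ctxd18t members. The T, B and macrophage gates of ctxd18t had 611, 345 and 585 CPM of it. The list for nerve, muscle and fat gave 658 counts, of which 471 were of the fat-cell gene Fabp4 in 1 member of CTX. CTX and combod18t shared 34 cell barcodes, of which 1 was a member in either, and Combined and ctxd18t shared 21, none a member. The other pairs of libraries shared 0.

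The share of epithelial cells among filtered cells was 0.110% in MRX (6 of 5440, exact Clopper-Pearson 95% interval 0.0405 to 0.240), 0.416% in CTX (37 of 8898, 0.293 to 0.573) and 0.0670% in Combined (3 of 4476, 0.0138 to 0.196). It was 1.67% in ctxd18t (67 of 4011, 1.30 to 2.12) and 0.448% in combod18t (18 of 4018, 0.266 to 0.707). All intervals given here cover counting error only, and a sort for CD45 can set these shares. The ctxd18t share was the highest, and its interval overlapped none of the others. The share in combod18t was 1.22 percentage points below that in ctxd18t, written as a difference of -1.22 (Newcombe 95% interval -1.70 to -0.785). Combined differed from CTX by -0.349 points (-0.512 to -0.176), and CTX from MRX by 0.306 points (0.133 to 0.473). Combined and MRX differed by -0.0433 points with an interval that held 0 (-0.181 to 0.0997). So in both pairs of labels the library with the combination label held fewer members than its CTX counterpart.

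Cells that reached 3 marker counts but failed the immune limits, nearly all of them by a Ptprc count, were more numerous than the members. They made up 2.52% of ctxd18t, 1.44% of combod18t, 1.09% of CTX, 0.919% of MRX and 0.871% of Combined. Their share also differed between combod18t and ctxd18t, by -1.07 points (-1.70 to -0.467), while the interval for Combined against CTX held 0 (-0.219, -0.552 to 0.154). Their median depth was 22672 UMIs in ctxd18t, 14753 in CTX and 24283.5 in combod18t, against 7085, 13300 and 15167 in the members. In MRX and Combined they were shallower, at 11504.5 and 14748 UMIs, against 25543.5 and 26667 in the members. As a background level, at least 3 counts of Krt8, Krt18 and Epcam were found in 2.66% of ctxd18t, 1.05% of Combined, 0.913% of combod18t, 0.640% of CTX and 0.567% of MRX cells gated as T cells without regard to those genes, at median depths from 4983 to 8124.5 UMIs. Among cells gated as B cells it was 0.631% in ctxd18t and 1.21% in combod18t, and among macrophages 1.19% and 2.01%, so the order of the d18 pair differed from that in T cells. Near the limit, 3 members of CTX, 6 of ctxd18t and 1 of combod18t held exactly 3 marker counts, and 5, 9 and 2 further cells with 2 counts met every other condition. MRX and Combined had 0 cells at either value.

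Members ranged from 500 to 109772 UMIs. The median was 25543.5 UMIs for MRX, 13300 for CTX, 26667 for Combined, 7085 for ctxd18t and 15167 for combod18t, and the other cells of these libraries had medians of 6461.5, 9133, 8496, 9172.5 and 7341.5. The summed counts behind the CPM were 171915, 846356, 65558, 1161178 and 373867 UMIs. Counting error was thus smallest in ctxd18t and CTX and largest in the 3 members of Combined. Since counts are summed, deep members weigh most. Of 104 recomputed levels of named genes in ctxd18t and CTX, 64 moved beyond their intervals when each cell counted equally. When each cell was drawn down to 1000 UMIs, 85 of 104 did. None of the 131 members, deep ones included, was among the highest 5% of doublet scores of its library. The rule had already left out cells with immune counts past its limits, so these scores say little about doublets with immune cells.

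The members fell into a group with and a group almost without Malat1, a long noncoding RNA kept in the nucleus. No member lay between 7.00 and 27.6 Malat1 counts per 10000 UMIs, and 43 members were under 10 per 10000. These 43 were 2 of 6 members in MRX, 14 of 37 in CTX, 0 of 3 in Combined, 23 of 67 in ctxd18t and 4 of 18 in combod18t. Among all other cells the count was 303 of 26712, or 1.13%. Among other cells with no Ptprc count and no more UMIs than the median member of their library, it was 11.4% (MRX), 31.5% (CTX), 22.2% (Combined), 61.2% (ctxd18t) and 52.2% (combod18t). The Malat1-poor members had a median of 1904 UMIs and 0.0796% mitochondrial counts, and Xist, the noncoding RNA of the silenced X chromosome, was 0 in 38 of them. The 88 others had a median of 23076 UMIs and 2.28% mitochondrial counts, and Xist was 0 in 1. Of the 43, 42 had under 10000 UMIs and 30 had under 0.5% mitochondrial counts. The exception in depth was a member of MRX with 24271 UMIs, 5.40% mitochondrial counts and 39 Xist counts. Levels were recomputed without the 43. With Malat1-rich members only, 8 of 104 recomputed levels and 63 of 191 recomputed log2 ratios moved beyond their intervals. Between ctxd18t and CTX, the log2 ratio of Trf moved from -3.27 to -3.90, and that of Saa1 went from -5.59 to -7.03, within its interval.

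**Figure D1:**
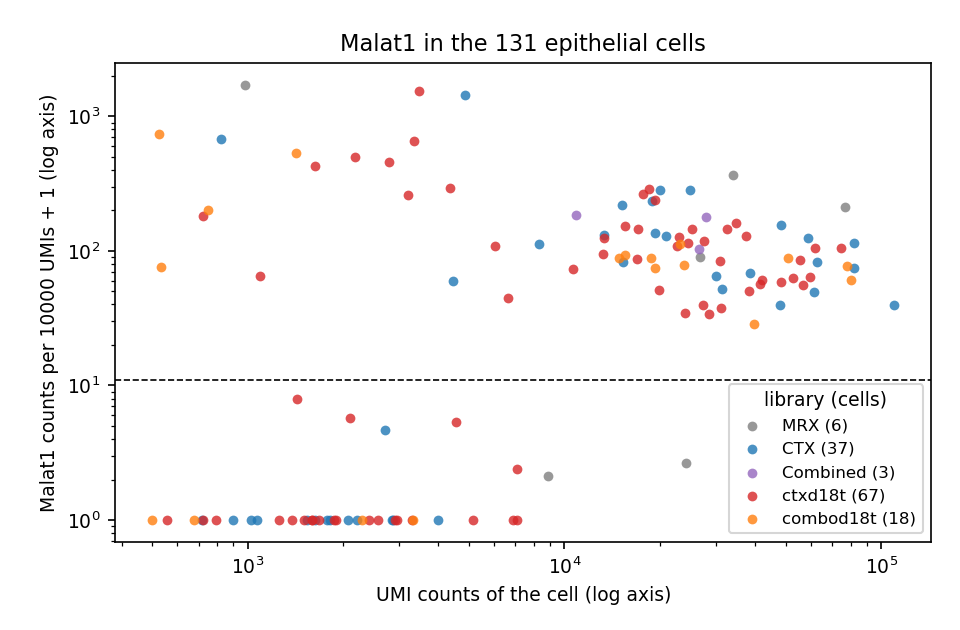
Malat1 counts per 10000 UMIs (plus 1) against total UMIs, both on log axes, for each of the 131 members, coloured by library. The 43 Malat1-poor members have a median of 1904 UMIs, and the 88 others a median of 23076.

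Below, 5 values given without library names run from MRX over CTX and Combined to ctxd18t and combod18t. Among luminal genes, Krt8 and Krt18 encode the paired keratins of simple epithelium and Epcam an adhesion molecule; all 3 chose the members. Krt8 was 1745 CPM in MRX, 1088 CPM in CTX, 671 CPM in Combined, 285 CPM in ctxd18t and 463 CPM in combod18t. Krt18 was 1582, 956, 381, 257 and 479 CPM in the same order. Epcam was 3153, 3194, 3035, 2789 and 2974 CPM. The keratins thus differed several-fold between libraries while Epcam stayed within a narrow range. Cldn3, which the rule did not use, went with the keratins at 1425, 872, 595, 243 and 441 CPM, and Cldn4, another claudin, stood at 500.2, 503, 107, 65.5 and 80.2 CPM. MRX and CTX were high and the d18 pair low in these claudins. Krt19, a further simple keratin, had only 3 counts in CTX and 6 in ctxd18t, and 0 elsewhere.

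The basal list was present in the same libraries. Krt14, a keratin of basal cells, was 69.8 CPM in MRX, 502 CPM in CTX, 961 CPM in Combined, 478 CPM in ctxd18t and 396 CPM in combod18t. Its partner Krt5 was 34.9, 154, 275, 157 and 152 CPM, and Krt17, a keratin of basal and stressed epithelium, was 40.7, 860.2, 1510.1, 743 and 134 CPM. All 3 were lowest in MRX. Trp63, the transcription factor that maintains basal cells, was 5.82 CPM in MRX, 102 CPM in CTX, 15.3 CPM in Combined, 315 CPM in ctxd18t and 53.5 CPM in combod18t. The smooth-muscle actin gene Acta2 was 52.4, 17.7, 289.8, 176 and 149.8 CPM. Other contractile genes were low in most libraries. Cnn1 (calponin) and Oxtr (the oxytocin receptor) had 2 counts each in ctxd18t and 0 in the other libraries, and Myh11, a smooth-muscle myosin gene, had 15 and 0. Tagln, the transgelin gene, had 5 counts in ctxd18t and 17 in Combined, where all 17 were in 1 member and gave 259 CPM, and 0 elsewhere. Mylk, a myosin light chain kinase gene, had 3 counts in CTX, 8 in ctxd18t, 8 in combod18t and 0 in MRX and Combined. Krt14 was found in 49.3% of ctxd18t members and in 0.251% of T-gate cells at median depths of 7085 and 7912 UMIs. After each cell was thinned to 1000 UMIs, it was found in 16 of 63 ctxd18t members (25.4%), 9 of 34 CTX members (26.5%) and 0 of 1192 T cells, with 4, 3 and 2 shallower cells left out.

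**Figure D2:**
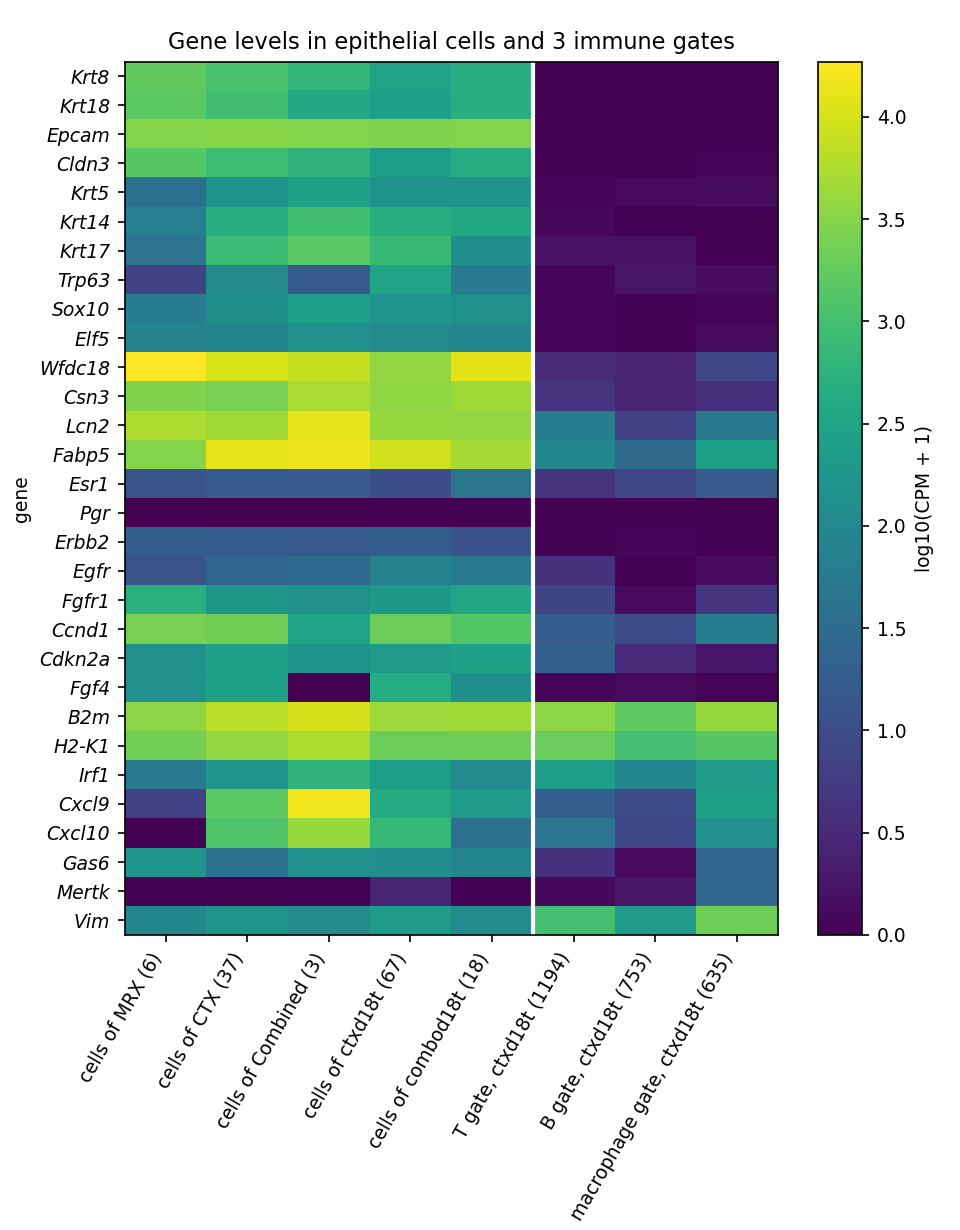
Levels of named genes, as log10 of CPM + 1 (colour), in the members of each library and in the gated T cells, B cells and macrophages of ctxd18t. Krt8, Krt18 and Epcam are 0 in the immune gates by construction, the other keratin, claudin and milk-protein genes are low there, and class I antigen presentation genes are high on both sides.

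At a limit of 5 counts, Krt14 and Krt18 were mostly carried by different members. Of 69 members with at least 10000 UMIs, 27 had at least 5 Krt14 counts without 5 Krt18 counts, 19 the reverse, 6 had both and 17 neither. At any count, 46 held Krt14 and 39 held Krt18, and 22 of the 69 held both. Krt8, the other luminal keratin and a gene of the rule, had a count in 26 of 27 members of the Krt14 kind and in 19 of 19 of the Krt18 kind, with medians of 1.5 and 11.8 per 10000 UMIs. All 4 such members of MRX were of the Krt18 kind. CTX had 7 of the Krt14 kind, 6 of the Krt18 kind and 4 with both, and ctxd18t had 13, 5 and 2, with 13 at neither. Combined had 2 and 1, and combod18t 5 and 3. These groups were made from the same counts that are described next, so the values are a description. Krt5 had a count in 27 of the 27 Krt14-kind members and in 2 of the 19 Krt18-kind members, Krt17 likewise in 27 and 2, and Trp63 in 24 and 2. In the other direction Cd14, a lipopolysaccharide co-receptor, had a count in 3 of 27 and 16 of 19. The median level of Wfdc18, a secreted milk whey-acidic-protein family member, was 6.98 per 10000 UMIs in the Krt14 kind and 131 in the Krt18 kind. Ccnd1, which encodes cyclin D1, had medians of 5.34 and 20.5 per 10000, and the growth factor gene Fgf4 a count in 12 of 27 and 16 of 19. Both kinds held Sox10, a transcription factor of neural crest and of mammary stem-like epithelium, with a count in 24 of 27 and 15 of 19. Epcam had a count in 69 of 69 deep members, but it is a gene of the rule. Lcn2, an iron-siderophore binding protein, was at medians of 34.5 and 43.2 per 10000.

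**Figure D3:**
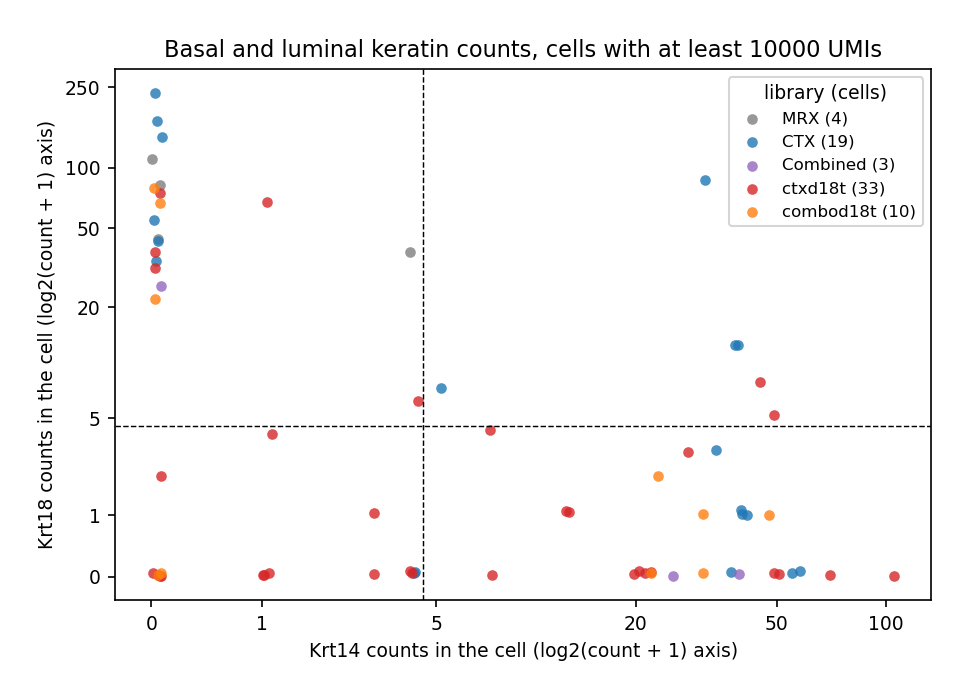
Krt18 counts against Krt14 counts, both on log2 axes of count + 1, in each of the 69 members with at least 10000 UMIs, coloured by library, with a small jitter. Dashed lines mark 5 counts. Most points lie along 1 of the axes, and 6 members have at least 5 counts of both.

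Unsupervised grouping gave 4 clusters, which are left unnamed. Cluster 0 held 55 members with a median of 2583 UMIs, and 39 of them were Malat1-poor. Cluster 1 held 41 members with a median of 22670 UMIs, and cluster 2 held 20 with a median of 40830 UMIs and a median of 43 Krt18 counts. Cluster 3 held 15 members with a median of 12 Krt14 counts. CTX gave 11 of the 20 members of cluster 2 and ctxd18t gave 2, while ctxd18t gave 24 of the 41 in cluster 1 and CTX gave 8. Depth and library therefore both move with these clusters, and their part in them was not tested.

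Genes of milk-producing progenitors were among those that set ctxd18t members apart from the rest of their library. Wfdc18 was 18666 CPM in MRX, 10335 CPM in CTX, 7734 CPM in Combined, 3809 CPM in ctxd18t and 12314 CPM in combod18t, and 121 CPM in the other cells of ctxd18t. Csn3, which encodes kappa-casein, was 2850.2, 2501, 5415, 3638 and 4555 CPM. Lcn2 was 5666, 4509.9, 13316, 3996 and 3742 CPM. All of these were high in all libraries, and the gates of ctxd18t stood far lower, at 3.55, 1.54 and 2.75 CPM of Csn3 in T cells, B cells and macrophages. Single members carried much of this in the smaller libraries. In Combined, 1584 of the 1891 counts of the progenitor list were in 1 member, and Csn3 had 346, 0 and 9 counts in its 3 members. In combod18t 4908 of 8430 counts of the list were in 1 member. Elf5, the transcription factor of alveolar progenitors, was 81.4, 83.9, 137, 102 and 88.3 CPM, a narrow range. Sox10 was 64, 135, 244, 169 and 136 CPM. The late milk gene Lalba had 12 counts in CTX, 1 in ctxd18t, 1 in combod18t and 0 elsewhere. Trf, which encodes transferrin, ranged from 3548 CPM in MRX to 114 in ctxd18t, with 1104 in CTX, 839 in Combined and 1402 in combod18t. The fatty acid carrier gene Fabp5 was 3118, 13397, 14781, 9275 and 4929.6 CPM in the members and 319.8 CPM in the other ctxd18t cells.

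Hormone receptors had few counts. Pgr, the progesterone receptor gene, had 0 counts in all 131 members, which in ctxd18t allows up to 2.58 CPM (3 counts). Esr1, the oestrogen receptor gene, had 11 counts in ctxd18t, 16 in combod18t, 13 in CTX, 2 in MRX and 1 in Combined, and its 9.47 CPM in ctxd18t members lay within the range of that library's immune gates (3.64 to 15.2 CPM). In combod18t members Esr1 was 42.8 CPM (exact Poisson 95% interval 24.5 to 69.5), above that range. Erbb2, the HER2 receptor gene, had 20 counts in ctxd18t, 4 in combod18t, 14 in CTX, 3 in MRX and 1 in Combined, or 10.7 to 17.5 CPM. The prolactin receptor gene Prlr was 93.1 CPM in MRX, 55.5 CPM in CTX, 30.5 CPM in Combined, 15.5 CPM in ctxd18t and 58.8 CPM in combod18t. Low or absent Esr1, Pgr and Erbb2 is what defines the triple negative class; how RNA levels here relate to the clinical protein test was not measured.

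Genes of growth control and tumour suppression were mostly higher than in T cells. Of 17 genes of this list, 10 were at least 2-fold higher in ctxd18t members than in its T cells and 1 was lower, where 20.2% and 27.9% of all 12585 genes compared were. Against B cells 11 were higher and 3 lower, and against macrophages 11 and 2. The shares of all genes were 21.4% higher and 27.5% lower against B cells, and 25.4% and 24.9% against macrophages. Ccnd1 was 2455 CPM in MRX, 2237 CPM in CTX, 305 CPM in Combined, 2040.2 CPM in ctxd18t and 1343 CPM in combod18t, and at most 64.8 CPM in the gates of ctxd18t. Cdkn2a, the locus of the p16 and p19 tumour suppressors, was 139.6, 274, 153, 193 and 273 CPM, against 19.6 CPM in T cells and 0.741 in macrophages. Fgfr1, a fibroblast growth factor receptor gene, was 512, 184, 137, 191 and 334 CPM, and at most 6.51 CPM in the gates. Egfr, the epidermal growth factor receptor gene, was 11.6, 23.6, 30.5, 81.8 and 56.2 CPM. Trp53, the p53 gene, was 87.3, 102, 76.3, 124 and 58.8 CPM. CTX and ctxd18t lay within the 89 to 171 CPM of the gates, and MRX, Combined and combod18t below it. Of 15 compared p53 response genes, 2 were higher and 6 lower than in T cells, 1 and 6 against macrophages, and 3 and 6 of 14 against B cells. By the shares of all genes given above, the 3 of 14 higher than in B cells are at the background. Among them the p53 target Ccng1 had 5 counts (4.31 CPM) in ctxd18t members against 132 CPM in T cells, while Cdkn1a, the p21 cell-cycle inhibitor gene, stood at 323 and 157 CPM.

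Genes of G2 and mitosis were also high, while S phase genes were so only against macrophages. Of 16 genes of the G2 and mitosis list, 14 were at least 2-fold higher in ctxd18t members than in T cells and 0 lower, with a median log2 ratio of 1.46 against -0.16 over all genes compared. Against B cells, where 21.4% of 11523 genes were higher and 27.5% lower, 10 were higher and 0 lower. Against macrophages, where 25.4% of 11680 genes were higher and 24.9% lower, 16 of 16 were higher. The list summed to 5277 CPM in ctxd18t members, 2047 in T cells, 2479 in B cells and 404 in macrophages. Over the other libraries it was 2077 CPM in MRX, 4079 in CTX, 366 in Combined and 3549 in combod18t; the 24 counts of Combined left 12 of the 16 genes at 0. Top2a, the topoisomerase of dividing cells, was 750.1 CPM in ctxd18t members and 316 in T cells. Ube2c, a mitotic ubiquitin carrier, was 394 and 58.5 CPM, whereas the proliferation marker Mki67 stood at 212 and 321 CPM. Of the 16 S phase genes, 3 were higher and 0 lower than in T cells, 1 higher and 2 lower than in B cells, and 16 higher than in macrophages. Against T cells 20.2% of all genes were higher and 27.9% lower, so the 3 of 16 are near the background. The S phase list summed to 1347 CPM in ctxd18t members, 1193 in T cells, 1323 in B cells and 275 in macrophages.

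Hypoxia and glycolysis genes were higher than in lymphocytes and near macrophages. Of 17 compared with T cells 11 were higher and 0 lower, of 17 compared with B cells 16 and 0, and of 18 compared with macrophages 5 and 1. Over all genes 20.2%, 21.4% and 25.4% were higher in these comparisons, so the 5 of 18 are near the background. The list summed to 4124 CPM in the members of MRX, 3685 in those of CTX, 1846 in those of Combined, 5089.7 in those of ctxd18t and 3432 in those of combod18t. In the gates it was 2020.2 CPM for T cells, 1183 for B cells and 3836 for macrophages. Vegfa, the vascular growth factor gene, was 234 CPM in ctxd18t members, 9.73 in T cells and 298 in macrophages. Pgk1, a glycolytic enzyme gene, was 598, 233 and 353 CPM.

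Few class I antigen presentation genes differed from the immune gates by 2-fold. Against T cells of ctxd18t, 0 of 13 genes were higher and 2 lower, with a median log2 ratio of -0.21. Against macrophages 1 was higher and 2 lower. The shares of all genes were 20.2% higher and 27.9% lower against T cells, and 25.4% and 24.9% against macrophages. Against B cells 3 of 13 were higher, a share near the 21.4% of all genes, and 0 lower, where 27.5% of all genes were. The median there was 0.76, and the list summed to 10349.8 CPM in the members and 4870.0 CPM in B cells. B2m, the light chain shared by all class I molecules, was 3438 CPM in MRX, 6641 CPM in CTX, 10022 CPM in Combined, 4485 CPM in ctxd18t and 4638 CPM in combod18t, and 3365, 1598 and 3952 CPM in the T, B and macrophage gates. H2-K1, a class I heavy chain, was 2286, 3729, 5522, 2015 and 2169 CPM. H2-D1, another heavy chain, was 2280.2, 4223, 6544, 2079 and 2381 CPM. CTX and Combined were the highest for all 3, and MRX and the d18 pair lay close together for the heavy chains. In Combined, 1176 of the 1757 counts of the class I list were in 1 of its 3 members. Tap1, the peptide transporter, was 17.5, 123, 366, 87 and 34.8 CPM, and the immunoproteasome gene Psmb9 was 81.4, 598, 854, 459.9 and 249 CPM. MRX was the lowest for both. The class II list, in contrast, summed to 93.1, 1310.3, 3035, 1073 and 289 CPM, against 1460.4 CPM in T cells, 17735 in B cells and 22528 in macrophages of ctxd18t. Of its 7 genes 0 were higher and 0 lower in ctxd18t members than in its T cells, with a median log2 ratio of -0.04.

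Interferon-response genes differed by the cells they were compared with. Of 21 genes, 5 were higher and 2 lower in ctxd18t members than in T cells, 16 higher and 2 lower than in B cells, and 2 higher and 7 lower than in macrophages. Over all genes compared, 20.2% were higher and 27.9% lower than in T cells, 21.4% and 27.5% than in B cells, and 25.4% and 24.9% than in macrophages. The 5 higher than in T cells are near that background share, and the 16 higher than in B cells are above it. Irf1, a transcription factor that interferons induce, was 58.2 CPM in MRX, 168 CPM in CTX, 595 CPM in Combined, 241 CPM in ctxd18t and 115 CPM in combod18t, and 245 CPM in T cells. Bst2, which tethers viruses to the cell, was 332, 1008, 1189.8, 279 and 297 CPM. Irf1 was lowest in MRX, and both genes were highest in Combined.

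The chemokine genes Cxcl9, Cxcl10 and Cxcl11, whose products draw T cells through the receptor CXCR3 and which interferon gamma induces, were concentrated in few members. Cxcl9 had a count in 33 of 131 members and at least 10 counts in 15. In CTX it had 1345 counts, of which 359, 319 and 294 were in 3 members. In Combined 972 of 973 counts were in 1 member, in ctxd18t 347 of 493, and in combod18t 79 of 80; MRX had a single count. Of the 15 members with at least 10 Cxcl9 counts, 13 had a Cxcl10 count and 12 a Cxcl11 count, against 25 and 9 of the 116 others. The 15 held 557 to 82252 UMIs. Deeper members show more genes, and depth was not matched with the others. Lyz2 was at most 3 counts and the T, NK and B cell genes together at most 4 counts in these 15, and in the top member of Combined both were 0. The macrophage list as a whole ranged from 0 to 69 counts in the 15, with 49 in the top member of Combined and 50 and 69 in 2 members of CTX, and Cd14 gave 49, 48 and 65 of these. Cd14 was also carried by other Krt18-kind members; its part in the Cxcl9 counts was not tested. Summed, Cxcl9 was 5.82 CPM in MRX, 1589 CPM in CTX, 14842 CPM in Combined, 425 CPM in ctxd18t and 214 CPM in combod18t, against 271 CPM in the macrophage gate, 18.8 in T cells and 8.69 in B cells of ctxd18t. Cxcl10 was 0, 1251, 4149, 717 and 34.8 CPM, and Cxcl11 was 0, 317, 4378, 264 and 32.1 CPM. Since most of these counts sit in 1 to 3 cells of a library, the order of libraries follows those cells.

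**Figure D4:**
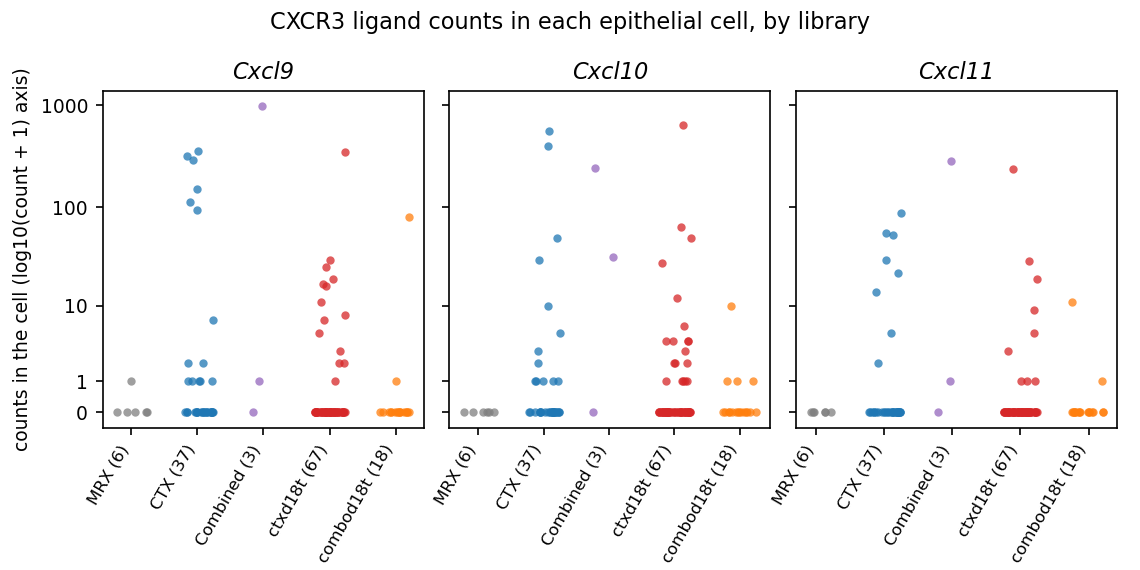
Counts of Cxcl9, Cxcl10 and Cxcl11 in each member by library, on a log10 axis of count + 1. Most members are at 0, and 1 member of Combined holds 972 of that library's 973 Cxcl9 counts.

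The promoters of Cxcl9 and Cxcl10 are shown because these genes were high in largely the same few members. They are the 250 bases before each start in RefSeq, build GRCm38.p6, minus strand, at chr5:92328080-92328329 and chr5:92348890-92349139. Capitals mark matches on either strand to GAAANNGAA, a core of the interferon-stimulated response element, or GGGANNTTC, a core of the kappa-B site.
Cxcl9: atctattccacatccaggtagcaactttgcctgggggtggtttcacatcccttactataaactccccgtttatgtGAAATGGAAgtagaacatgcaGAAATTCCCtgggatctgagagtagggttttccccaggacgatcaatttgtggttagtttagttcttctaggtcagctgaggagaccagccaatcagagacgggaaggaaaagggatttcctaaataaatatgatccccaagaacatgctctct
Cxcl10: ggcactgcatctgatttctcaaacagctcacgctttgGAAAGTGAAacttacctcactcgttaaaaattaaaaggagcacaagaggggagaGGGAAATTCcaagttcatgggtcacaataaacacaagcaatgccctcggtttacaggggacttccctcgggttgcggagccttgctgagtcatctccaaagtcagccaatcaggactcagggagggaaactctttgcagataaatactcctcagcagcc
Cxcl10 held GAAAGTGAA from 213 to 205 bases before the start and GGGAAATTC from 159 to 151 bases before it. Cxcl9 held GAAATGGAA from 175 to 167 bases before its start and GAAATTCCC, on the other strand, from 154 to 146 bases before it. Forms longer by 1 base, A for the first motif and C for the second, were searched first and matched in Cxcl10 but not in Cxcl9. Among 32851 promoter entries of the same length, 7.13% held GAAANNGAA and 3.23% GGGANNTTC. A match is a description of the letters and not evidence of binding.

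Other chemokine genes also rested on single cells. For Ccl5, a T cell and macrophage attractant, 423 of 431 counts in CTX and 78 of 82 in ctxd18t were in 1 member each. For the neutrophil attractant Cxcl1, 298 of 449 counts in CTX were in 1 member, and the levels were 384 CPM in MRX, 531 CPM in CTX, 168 CPM in Combined, 177 CPM in ctxd18t and 144 CPM in combod18t. Csf2, Il1a, Il33 and Tslp, epithelial alarm and growth signals for immune cells, had 0 counts in every library. Of the inhibitory ligands, Cd274 (PD-L1) had 11 counts in ctxd18t, 1 in combod18t, 4 in CTX, 0 in MRX and 5 in Combined. In CPM it was 9.47 in ctxd18t and 4.73 in CTX, and 76.3 in the 3 members of Combined (exact Poisson 95% interval 24.8 to 178), against 132 CPM in T cells and 255 in macrophages of ctxd18t.

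The receptor that the study's title names was almost absent from the members. Mertk, a receptor kinase by which macrophages engulf dying cells, had 2 counts in ctxd18t and 0 in the other libraries, against 25.6 CPM in macrophages of ctxd18t. Its relatives were low too. Axl had 3 counts in CTX, 1 in ctxd18t, 2 in combod18t and 0 elsewhere, and Tyro3 had 11 in ctxd18t, 3 in combod18t, 6 in CTX, 1 in MRX and 0 in Combined. By contrast Gas6, whose product binds these receptors, was 175 CPM in MRX, 40.2 CPM in CTX, 137 CPM in Combined, 125 CPM in ctxd18t and 85.6 CPM in combod18t, and 23.6 CPM in macrophages and 3.05 in T cells of ctxd18t. The other ligand gene, Pros1, had 19 counts in ctxd18t and 6 in combod18t and 0 elsewhere. Mfge8, a bridge between dying cells and phagocytes, was 250.1, 102, 137, 49.1 and 80.2 CPM. Cd47, the signal that restrains engulfment, was 93.1, 126, 381, 71.5 and 104 CPM, and the 71.5 CPM of ctxd18t members was lower than the level in its T, B and macrophage gates (483, 331 and 522 CPM). Of the engulfment list, 2 of 11 were higher and 6 lower than in macrophages, 5 of 11 higher and 3 lower than in T cells, and 6 of 9 higher and 1 lower than in B cells. The shares over all genes were 25.4% higher and 24.9% lower for macrophages, 20.2% and 27.9% for T cells, and 21.4% and 27.5% for B cells, so the 3 lower than in T cells are at the background.

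Mesenchymal genes were split. Against T cells 5 of 14 were higher and 8 lower, against macrophages 4 of 13 higher and 7 lower, and against B cells 7 of 12 higher and 2 lower. Over all genes 20.2% were higher and 27.9% lower against T cells, 25.4% and 24.9% against macrophages, and 21.4% and 27.5% against B cells, so the 4 of 13 against macrophages are near the background. Vim, the intermediate filament of mesenchymal and blood cells, was 98.9 CPM in MRX, 158 CPM in CTX, 107 CPM in Combined, 233 CPM in ctxd18t and 115 CPM in combod18t, against 974 in T cells and 2101 in macrophages. The repressors of epithelial genes Snai2 and Twist1 stood at 45.6 and 43.9 CPM in ctxd18t and at no more than 1.95 CPM in any gate. Zeb1, another, was 21.5 CPM in ctxd18t members and 991 CPM in T cells.

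Only CTX and ctxd18t held at least 20 members each, so the comparison of members between libraries was made on this pair. Of 8421 genes with at least 20 counts over both, 954 (11.3%) were at least 2-fold higher in ctxd18t and 327 (3.88%) lower. The higher ones were 74.5% of those called, and 58.5% under median-of-ratios scaling, which shifted ratios by 0.16 on the log2 scale; the median log2 ratio of all genes was 0.21. With only the Malat1-rich members of the pair, 44 in ctxd18t and 23 in CTX, the counts were 985 and 316. The members of the pair also fell differently into the clusters above: cluster 2, whose leading genes by fold include Cd14, Hp, Trf and Cldn4, held 11 of 37 CTX members and 2 of 67 ctxd18t members. Cluster 1, led by histone genes such as H1f4 and H1f5, held 8 and 24. The part of this mix in the differences that follow was not tested. All fold changes here are log2 ratios of CPM + 1, with exact binomial 95% intervals of the ratio itself. Treatment, day, mouse and run cannot be told apart in this pair.

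Of 17 luminal genes other than Krt8, Krt18 and Epcam, which chose the members, 8 were lower in ctxd18t and 0 higher, with a median of -0.83. Cldn4 differed by -2.92 (-3.31 to -2.59) and Cldn3 by -1.84 (-2.05 to -1.64). Of 12 progenitor genes 5 were lower and 0 higher, among them Trf at -3.27 (-3.55 to -3.01) and Wfdc18 at -1.44 (-1.49 to -1.39), while Csn3 differed by 0.54 (0.46 to 0.62). Basal genes were split, 2 higher and 2 lower of 11. Trp63 was higher by 1.62 (1.29 to 1.99) and Acta2 by 3.24 (2.55 to 4.17), Krt6a and Krt15 differed by -2.44 and -1.29, and Krt14 by -0.07 with an interval that held 0 (-0.26 to 0.11).

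Mesenchymal genes were higher in ctxd18t in 5 of 9 cases and lower in 0. Fn1, the fibronectin gene, was higher by 3.30 (2.75 to 4.01), and Twist1 and Snai2 by 1.57 and 1.23. Of the G2 and mitosis list 4 of 16 were higher and 0 lower, and of the hypoxia list 6 of 17 and 0. Of the class I list 1 of 13 was lower, H2-D1 at -1.02 (-1.10 to -0.95), and the list's median was -0.57. Cxcl9 differed by -1.90 (-2.06 to -1.75), on the few cells named above. Gas6 was higher by 1.61 (1.09 to 2.22), and Egfr by 1.75.

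The genes with the largest differences by size were partly members of the lists. Higher in ctxd18t, beside Fn1 and Acta2, were Chl1, Robo2 and Ncam1, adhesion and guidance molecules best known from neurons, at 5.15, 3.45 and 3.03, and the linker histone genes H1f4 and H1f5 at 3.03 and 2.88. Lower were Saa1, an acute-phase protein gene, at -5.59, Hp, the haptoglobin gene, at -3.54, Cd14 at -3.80 (-4.47 to -3.30), and Pigr, the transporter of secreted antibodies, at -3.68. In counts, Chl1 had 1 in CTX and 89 in ctxd18t, and Saa1 110 and 2. Cpm, a carboxypeptidase gene, had 2 and 89 counts, the latter in 4 members with 83 in 1 of them, and S100a9, a neutrophil gene, 2 and 82, with 36 and 32 of the 82 in 2 members. Tgfbr3, a TGF-beta co-receptor gene, had 20 and 219. Lower too were Ly6d, with 191 counts in CTX and 11 in ctxd18t, Nupr1 with 84 and 2, Cxcl5 with 84 and 1, and Saa2 with 66 and 0; 81 of the 84 Cxcl5 counts were in 1 member. Saa1 was 116 CPM in MRX, 130.0 CPM in CTX, 1373 CPM in Combined, 1.72 CPM in ctxd18t and 0 CPM in combod18t, so both d18 libraries were low. H1f4 was 58.2, 74.4, 76.3, 615 and 511 CPM, and H1f5 was 23.3, 47.3, 0, 354 and 498 CPM; for both, the d18 pair was high and the other 3 libraries low.

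Some of these differences depended on how cells were weighted. When each cell counted equally, in place of summing counts, the Csn3 difference turned from 0.54 to -0.21. That of Wfdc18 became -0.71, that of Egfr 0.27, that of Krt15 -0.59 and that of Snai2 0.61, all within the 2-fold limit. Trf stood at -1.99, Cd14 at -2.54, Hp at -1.63 and Saa1 at -4.78, still lower in ctxd18t, and Pigr stayed past the limit too. Krt6a became -3.77. Leaving out the deepest member of each library brought Krt15 to -0.95.

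**Figure D5:**
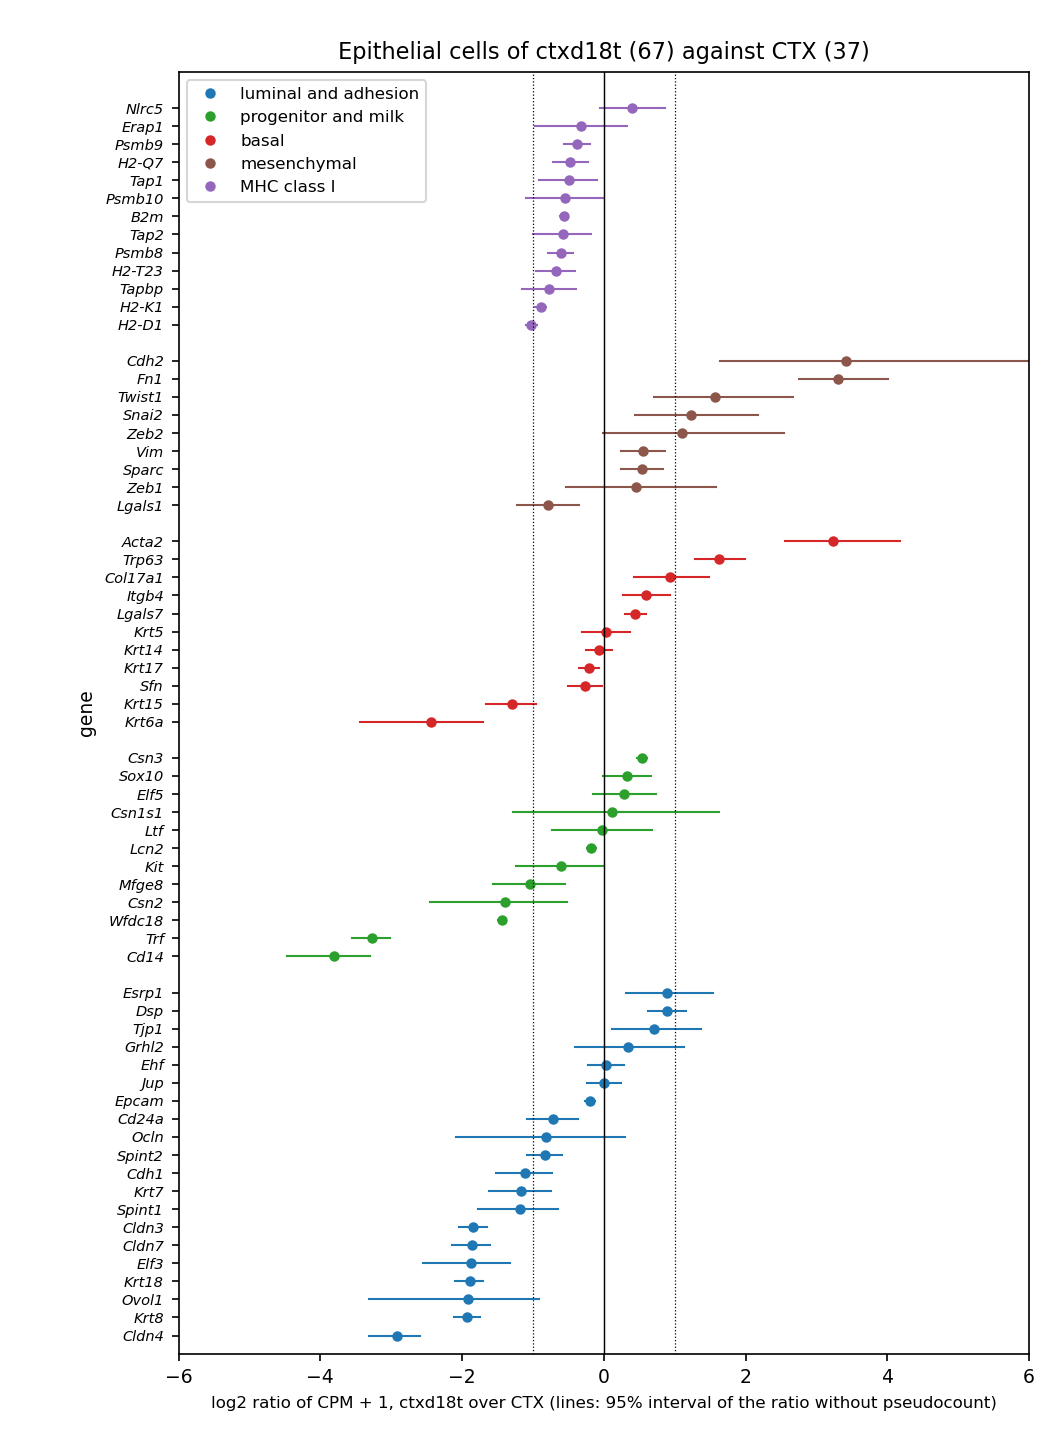
Log2 ratio of CPM + 1 in members of ctxd18t against members of CTX for genes of 5 lists, with lines for 95% intervals that cover counting error only (that of Cdh2 runs past the axis) and dotted lines at 2-fold. Cldn3, Cldn4, Trf and Wfdc18 lie below 0, and Fn1, Acta2 and Trp63 above.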

How the data were processed

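The labels' protocols name Cell Ranger 9.0.1 for the single-cell 3' libraries; GRCm39 and Seurat 5.2.0 are named in the submitters' processing notes. The deposited values are raw UMI counts per gene and cell over 33696 features, whole numbers and not normalised. Groups came from the treatment labels, 1 library each, so no p-value was computed. Members and gene lists were chosen with earlier results of these data known. Counts were summed over cells and scaled to CPM. Shares have Clopper-Pearson, share differences Newcombe, and ratios conditional binomial intervals (scipy 1.17.1, statsmodels 0.14.6). Genes compared had at least 20 counts over both sides, and called means a log2 ratio of CPM + 1 of at least 1 in size. Gates needed 3 marker counts. Named genes were list members, the 20 highest by level or by ratio to other ctxd18t cells, and the 10 highest and 10 lowest between CTX and ctxd18t (CPM + 10, at least 50 counts). Leiden clusters (scanpy 1.11.5, leidenalg 0.10.2, resolution 0.5) used 1500 variable genes, 20 components and 15 neighbours. No doublets were removed: Scrublet's automatic threshold marked at most 6 cells in a library, under 0.5%, and so had not worked. Genes sharing 1 of 26 duplicated symbols, and 1 gene of the interferon-response list, are not reported here. Alternatives covered filters, marker and Ptprc limits, doublet scores, pseudocount, scaling and weighting of cells. The ratio step was tested on simulated data for ctxd18t against CTX (8127 genes). There 100% of 181 changed genes kept their direction and 96.2% of intervals held the true value. The simulated counts were drawn with counting error alone, as the intervals assume, so spread between cells was not tested.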

Additional observations from a re-analysis of the deposited data

How the results depend on the processing

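The share of epithelial cells kept its direction between libraries under all alternatives run, at 1.42% to 1.84% in ctxd18t and 0.351% to 0.523% in combod18t, with a difference of -1.32 to -1.02 points. The difference of Combined from CTX ranged from -0.383 to -0.315 points. Counts of called genes moved more. With a pseudocount of 10 in place of 1 CPM, genes lower in ctxd18t members numbered 1844 against T cells (3511 before), 1790 against B cells (3164) and 1818 against macrophages (2908), and genes differing from CTX numbered 453 higher and 153 lower (954 and 327). With at least 50 counts these were 529 and 157, since fewer genes were compared. When each cell counted equally, a choice added after seeing the data together with those on Malat1 and the deepest member, they were 1719 and 813; the cause was not tested. Against macrophages, 50.5% of called genes were higher, and 37.6% under median-of-ratios scaling. Trf reversed against macrophages, from -1.67 to 0.32, when each cell counted equally; the cause was not tested. Recomputed levels of named genes moved beyond their interval in 178 cases and stayed within it in 550, and recomputed ratios did so in 525 and 800 cases. Of 327 recomputed ratios that were within 2-fold at first, 15 changed sign, among them Csn3, Esr1, Erbb2, Ccnd1 and Fgf4 between ctxd18t and CTX. Of 26 named genes called between ctxd18t and CTX, 21 stayed past the limit when each cell counted equally; Egfr, Krt15, Snai2, Vegfa and Wfdc18 did not. No paired analysis was possible because each label has 1 library, which also means that no replicate could be left out. Depth limits Combined (65558 UMIs over 3 members) and MRX (171915 over 6) most.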

Other observations

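Some immediate-early genes, which cells switch on within minutes of a stimulus, were high in the members of ctxd18t. Egr1 was 885 CPM there, against 214 in combod18t, 305 in Combined, 281 in CTX and 98.9 in MRX, and at most 86.5 CPM in the gates of ctxd18t. Fos was 1043 CPM in ctxd18t members and 227 in T cells, but 1077 in macrophages. Between libraries Fos was 281 CPM in combod18t, 198 in Combined, 293 in CTX and 75.6 in MRX, so ctxd18t was the highest library for both genes, which were chosen after their values were seen. Over the list, 3 of 14 genes were higher and 0 lower in ctxd18t than in CTX members. Of 15 stress and immediate-early genes compared, 6 were at least 2-fold higher in ctxd18t members than in its T cells and 2 lower, 7 and 2 against B cells, and 6 and 3 against macrophages. Over all genes 20.2%, 21.4% and 25.4% were higher in these comparisons, and 11.3% against CTX. Lower were 27.9%, 27.5% and 24.9%, and 3.88% against CTX. The 3 of 15 lower than in macrophages are thus near the background.

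Genes lying next to each other were high together at 2 places, chosen after their values were seen. Around Fgf4, 9 of its 10 neighbouring genes were compared, and 7 were at least 2-fold higher in ctxd18t members than in each of the 3 gates, where 13.3% of 10618 genes were. Ccnd1 is among them, as are Ano1, a chloride channel gene, at 133 CPM, Cttn, the cortactin gene, at 91.3, Shank2 at 51.7, Ppfia1 at 242 and Fgf15 at 57.7 CPM. Fgf4 itself was 443 CPM in ctxd18t and 266 in CTX, and 0 in Combined, where 0 counts allow up to 45.8 CPM. It had a count in 71 of 131 members. Fadd, in the same stretch, was 2.58 CPM, against 5.75 CPM in T cells. Around Atp5o, a subunit gene of mitochondrial ATP synthase, 9 of 13 neighbours were compared and 7 were at least 2-fold higher than in each of the 3 gates, with Son at 1462 CPM, Gart at 161, Mrps6 at 500.4 and Rcan1 at 372. Atp5o was 4176 CPM for MRX, 3559.97 for CTX, 2227 for Combined, 3312 for ctxd18t and 4111 for combod18t, against 222 CPM in the other cells of ctxd18t, and had a count in 125 of 131 members. The order of genes is that of RefSeq on GRCm38.p6. DNA copy number was not measured.

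A few other signals rested on single members. Of 84 Il10 counts in ctxd18t, 47 and 35 were in 2 members, and 471 of 533 Fabp4 counts in CTX were in 1.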
